A study of Mus musculus with 12 samples.

Results

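The 7 GABA-A receptor subunit genes Gabra2, Gabra3, Gabra4, Gabra5, Gabrb1, Gabrb2 and Gabrd were followed in the mouse hippocampus after status epilepticus, a seizure that does not stop by itself. They were taken as every probe set whose annotated symbol was one of the 7, which gave 15 of the 28898 probe sets with 1 gene symbol. The 7 genes were among 17097 genes with a probe set. All 7 passed the filter on dim genes, which kept 13853.

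The amygdala was injected with kainic acid (KA), which activates kainate receptors for glutamate, at 0.3 µg in 0.2 µl of phosphate-buffered saline. The hippocampus of the injected side was taken at 8 h or 14 d. The 4 groups of 3 arrays were KA at 8 h, vehicle control at 8 h, KA at 14 d and vehicle control at 14 d. The KA groups received lorazepam, a benzodiazepine, 40 min after KA, at 6 mg/kg by intraperitoneal injection. Controls received 0.2 µl of vehicle, and their lorazepam treatment is not stated in the labels. KA and lorazepam therefore cannot be told apart in the comparisons of KA with control tissue at either time. Strain, age and sex are not in the labels. Neither is the number of animals behind an array, and the p-values cover the spread between samples, which may be technical. The hippocampus was taken whole, so fewer cells of a type and less RNA per cell cannot be told apart.

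GABA-A receptors are chloride channels opened by GABA, the main inhibitory transmitter of the adult brain, and each channel is a ring of 5 subunits. GABA binds between alpha and beta subunits, and classical benzodiazepines bind between certain alpha subunits and a gamma subunit. Receptors with a gamma subunit and Gabra2 or Gabra3 are found mostly at synapses. Receptors with Gabra5 in pyramidal cells, and with Gabra4 and Gabrd in dentate granule cells, lie largely outside synapses and carry a steady inhibitory current. Shifts in subunit levels in the hippocampus are well known from rodent models of epilepsy.

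No member passed the test in KA against control tissue at either time. At 8 h, 0 of 7 were called by limma with a Benjamini-Hochberg adjusted p under 0.05, where 17.5% of all genes tested were called (7.92% higher, 9.55% lower), and 3 of 7 had an unadjusted p under that value. At 14 d, 0 of 7 were called, where 2.56% of all genes were called (1.99% higher, 0.57% lower), and 2 of 7 had an unadjusted p under it. Unadjusted p-values under 0.05 were common over all genes. Of 13853 genes ranked by limma p, one at 0.0505 ranked 4023rd at 8 h, and one at 0.0489 ranked 1726th at 14 d. The members nearest to a call were Gabra5, with lower values in KA tissue at both times, Gabra4, with higher values at 8 h, and Gabrb2, with lower values at 8 h. Same-numbered arrays at 8 h all passed a check for pairing, but so did some arrays of different numbers, so the check did not settle a pairing. With the replicate number as a block Gabra4 and Gabra5 passed the threshold at 8 h, where that setting called 22.6% of all genes.

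The sequences upstream of these 3 genes are shown because they had the smallest p-values at 8 h. RefSeq start sites (assembly GRCm38.p6) were available for 6 of the 7 members, and each sequence is the 250 bases before a start, 5′ to 3′ on the gene's strand. Capitals mark the motifs found by letters on both strands. The motifs searched were the GC box GGGCGG, the TATA motif TATAAA, the CRE half-site TGACG, the full CRE TGACGTCA, and the EGR motif GCGTGGGCG or GCGGGGGCG. The CRE half-site lies within the full CRE.
Gabra4 (chr5:71658309-71658558, minus strand): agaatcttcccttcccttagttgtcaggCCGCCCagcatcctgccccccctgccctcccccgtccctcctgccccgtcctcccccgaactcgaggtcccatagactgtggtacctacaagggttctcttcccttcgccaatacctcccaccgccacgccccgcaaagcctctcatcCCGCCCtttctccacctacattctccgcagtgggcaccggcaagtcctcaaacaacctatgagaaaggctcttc
Gabra5 (chr7:57510060-57510309, minus strand): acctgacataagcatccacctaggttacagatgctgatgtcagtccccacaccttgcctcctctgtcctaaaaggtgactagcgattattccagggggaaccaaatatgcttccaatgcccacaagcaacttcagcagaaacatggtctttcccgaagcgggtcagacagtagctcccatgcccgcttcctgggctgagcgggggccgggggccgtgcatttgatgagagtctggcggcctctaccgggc
Gabrb2 (chr11:42420190-42420439, plus strand): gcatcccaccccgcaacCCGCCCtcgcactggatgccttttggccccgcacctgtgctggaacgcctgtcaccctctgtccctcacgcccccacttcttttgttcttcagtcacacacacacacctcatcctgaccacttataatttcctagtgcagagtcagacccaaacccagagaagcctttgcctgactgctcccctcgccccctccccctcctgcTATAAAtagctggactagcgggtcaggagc
The Gabra4 window held 2 GC boxes, at positions -222 to -217 and -74 to -69 counted from the start, both on the opposite strand. The printed Gabrb2 window held the TATA motif at -30 to -25 and a GC box on the opposite strand at -233 to -228. RefSeq gives 2 further Gabrb2 starts, whose windows held none of the searched motifs and had 54.0% and 36.8% G and C. None of the searched motifs was in the Gabra5 window. Of 32817 promoter windows of the same length, 32.7% held the GC box, 12.4% the TATA motif, 17.7% the CRE half-site, 1.55% the full CRE and 3.06% the EGR motif. The share of G and C was 61.2% for Gabra4, 56.4% for Gabra5 and 58.8% for Gabrb2, where the median of all windows was 52.4%.

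By the same annotation Gabra2 spans chr5:70958392-71095849, Gabra4 chr5:71569734-71658308 and Gabrb1 chr5:71657921-72149572. Gabra4 and Gabrb1 run head to head, and their annotated 5′ ends overlap by 388 bases. Gabra5 spans chr7:57407669-57591016 and Gabrb2 chr11:42419515-42632591, so the printed windows of both belong to starts inside the annotated gene. Gabrd spans chr4:155384979-155398098 and Gabra3 chrX:72432676-72656919.

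The 12 arrays were Affymetrix Mouse MG-430 PM arrays, with values as log2 intensities that the authors made before deposit. Array medians lay between 4.898 and 4.946, within-group correlations between 0.9892 and 0.9969, and no pair was identical. The mean of GC-rich background probe sets lay between 4.22 and 4.85. The titles give 8 h for 6 arrays whose time field reads 11 to 13 h for KA and 8 to 10 h for the controls, and the titles were used. KA and the hour in that field cannot be told apart. Xist, a transcript of the inactive X chromosome, was at 7.39 to 8.71 on the 3 KA arrays at 8 h and at 4.19 to 4.67 on the other 9. Eif2s3y, a Y-linked gene, was at 5.57 to 6.83 on the KA arrays at 8 h and at 7.46 to 8.09 on the other 9. Sex and KA therefore cannot be told apart at 8 h in any of the values that follow.

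All levels are log2 intensities of the gene's brightest probe set, and a change is the mean of KA arrays minus the mean of control arrays on that scale. Levels are not compared between genes, since each probe set has its own response.

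**Figure D1:**
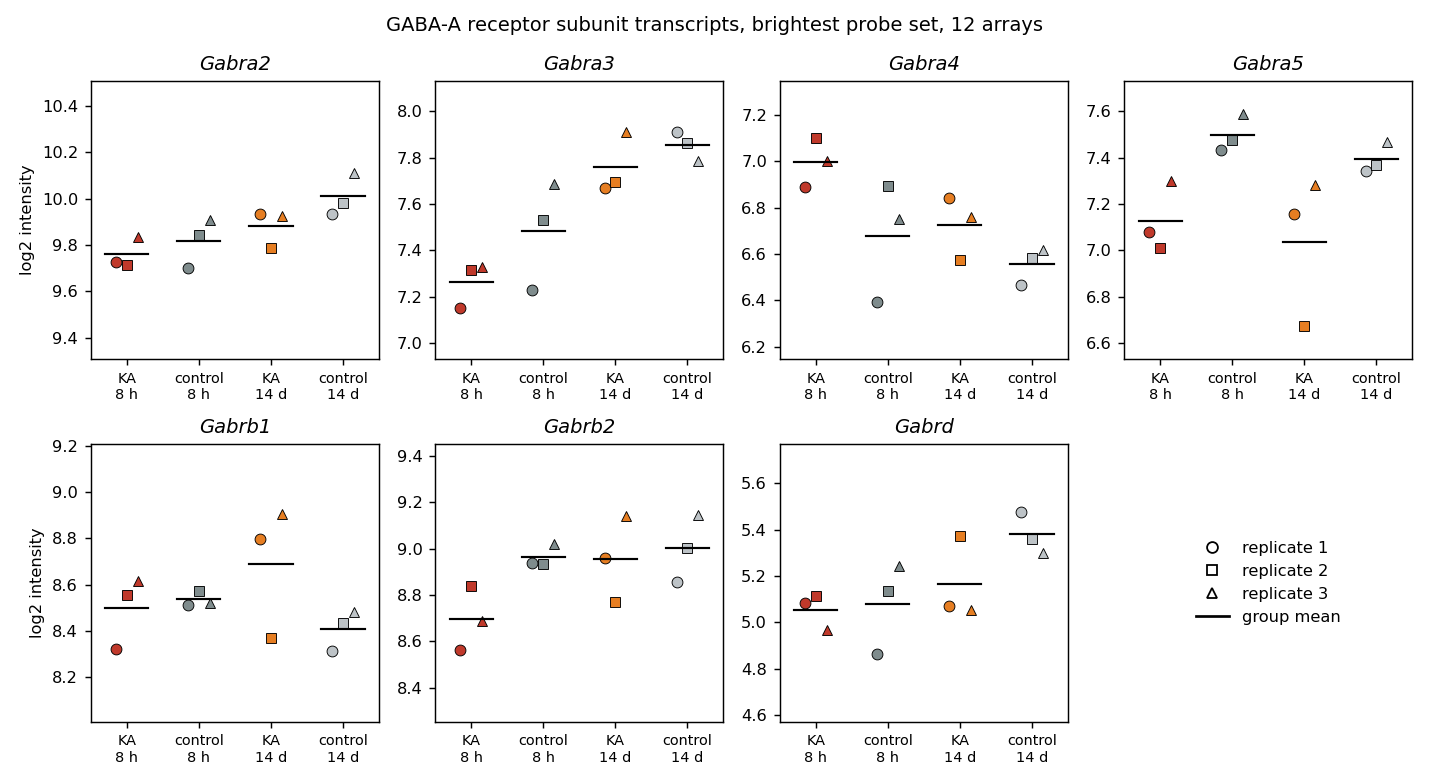
Log2 intensity (y axis) of the brightest probe set of each of the 7 genes on every array, by group (x axis), with marker shape for the replicate number and a line for the group mean. Gabra5 is lower on all KA arrays than on the controls of the same time, and KA 14 d replicate 2 lies apart from the other KA 14 d arrays for Gabra5 and Gabrb1.

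Gabra5 encodes the alpha subunit of receptors outside synapses in hippocampal pyramidal cells. At 8 h it measured 7.08, 7.01 and 7.30 on the KA arrays, against 7.43, 7.47 and 7.59 on the control arrays. All 3 KA arrays lay below all 3 controls. The change was -0.37 ± 0.13 (SE, 95% interval -0.64 to -0.10), a level 1.29-fold lower in KA tissue, with an adjusted p of 0.0609 in limma. With the replicate block the adjusted p was 0.0132. It was also under the threshold without KA 8 h replicate 3 (change -0.46, adjusted p 0.0399), KA 14 d replicate 2 (adjusted p 0.00844) or KA 14 d replicate 3 (adjusted p 0.0297).

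At 14 d Gabra5 measured 7.15, 6.67 and 7.28 on the KA arrays, against 7.34, 7.37 and 7.47 on the controls. The groups again did not overlap, and KA replicate 2 was the lowest of the 12 arrays. The change was -0.36 ± 0.13 (SE, 95% interval -0.63 to -0.08), with an adjusted p of 0.214 in limma. Without KA 14 d replicate 2 the change was -0.17. The change at 14 d minus the change at 8 h was 0.01 ± 0.18 (SE, 95% interval -0.37 to 0.40, adjusted p 0.983 in limma), an interval wide enough to hold differences as large as either change. In order of group means Gabra5 stood at 7.50 ± 0.08 in 8 h controls, 7.39 ± 0.06 in 14 d controls, 7.13 ± 0.15 in KA tissue at 8 h and 7.04 ± 0.32 in KA tissue at 14 d (SD, n = 3 each). Both control groups overlapped each other, and so did both KA groups.

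Gabra4 encodes an alpha subunit that pairs with Gabrd in dentate granule cells, in receptors that classical benzodiazepines do not bind. At 8 h it measured 6.89, 7.10 and 7.002 on the KA arrays, against 6.39, 6.89 and 6.75 on the controls. The lowest KA array lay just below the highest control, so the groups overlapped. The change was 0.32 ± 0.12 (SE, 95% interval 0.07 to 0.56), 1.25-fold, with an adjusted p of 0.0757 in limma and 0.043 with the replicate block. Without control 8 h replicate 1, the lowest array, the change was 0.17, and without control 8 h replicate 2 it was 0.42, with an adjusted p of 0.0331.

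The second Gabra4 probe set gave a change of 0.40 ± 0.20 (SE, adjusted p 0.223 in limma over 32790 probe sets). Here all 3 KA arrays, at 5.86, 6.12 and 6.59, lay above the controls at 5.84, 5.74 and 5.81. At 14 d the brighter probe set measured 6.84, 6.58 and 6.76 on the KA arrays, against 6.47, 6.58 and 6.62 on the controls. The change was 0.17 ± 0.12 (SE, adjusted p 0.631 in limma) and the groups overlapped. Group means ran from 6.996 ± 0.11 in KA tissue at 8 h, through 6.72 ± 0.14 in KA tissue at 14 d and 6.68 ± 0.26 in 8 h controls, to 6.56 ± 0.08 in 14 d controls (SD, n = 3 each). Only the highest of the 4 groups was clear of its neighbour on every array, and it overlapped the 8 h controls.

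Gabra2 encodes an alpha subunit of synaptic receptors, including those on the axon initial segment of pyramidal cells. Its brighter probe set measured 9.73, 9.72 and 9.84 on the KA arrays at 8 h, against 9.70, 9.84 and 9.91 on the controls. The groups overlapped, with a change of -0.06 ± 0.09 (SE, adjusted p 0.749 in limma). At 14 d it measured 9.935, 9.790 and 9.927 on the KA arrays, against 9.936, 9.983 and 10.11 on the controls. The highest KA array lay just under the lowest control, with a change of -0.13 ± 0.09 (SE, adjusted p 0.619 in limma).

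The second Gabra2 probe set differed from the first at 8 h. It measured 8.92, 8.85 and 9.11 on the KA arrays at 8 h, against 8.74, 8.83 and 8.75 on the controls, so that here every KA array was above every control. The change was 0.19 ± 0.09 (SE, adjusted p 0.18 in limma over all probe sets). At 14 d the KA arrays, at 8.84, 8.69 and 8.87, lay below the controls at 8.88, 8.90 and 8.98, with a change of -0.12 ± 0.09 (SE, adjusted p 0.684). The array annotation links the sets to different transcript records, and which transcripts each reads was not tested.

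Gabra3 lies on the X chromosome and encodes another alpha subunit of synaptic receptors. At 8 h it measured 7.15, 7.32 and 7.33 on the KA arrays, against 7.23, 7.53 and 7.69 on the controls. The groups overlapped, with a change of -0.22 ± 0.11 (SE, adjusted p 0.209 in limma). Without control 8 h replicate 1 it was -0.34 (adjusted p 0.0401), and without control 8 h replicate 3 it was -0.12. At 14 d it measured 7.67, 7.70 and 7.91 on the KA arrays, against 7.91, 7.86 and 7.79 on the controls, with a change of -0.10 ± 0.11 (SE, adjusted p 0.814). Its second probe set gave -0.18 ± 0.09 at 8 h and -0.05 ± 0.09 at 14 d (SE), both with overlapping groups.

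Of the beta subunits, Gabrb2 forms part of the most abundant receptors in the adult brain, and it had 5 probe sets. The brightest measured 8.56, 8.84 and 8.69 on the KA arrays at 8 h, against 8.94, 8.93 and 9.02 on the controls. All KA arrays lay below all controls. The change was -0.27 ± 0.11 (SE, 95% interval -0.50 to -0.04), 1.21-fold lower in KA tissue, with an adjusted p of 0.0996 in limma. At 14 d it measured 8.96, 8.77 and 9.14 on the KA arrays, against 8.86, 9.00 and 9.15 on the controls. These groups overlapped over most of their range, with a change of -0.05 ± 0.11 (SE, adjusted p 0.921).

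The other 4 Gabrb2 probe sets gave changes between -0.22 and -0.01 at 8 h and between -0.36 and -0.07 at 14 d. All were negative at both times, and none was called. The dimmest gave -0.15 ± 0.14 at 8 h and -0.36 ± 0.14 at 14 d (SE, adjusted p 0.581 and 0.307 in limma over all probe sets), so the probe sets of this gene did not share 1 order of the times. Group means of the brightest were 9.00 ± 0.14 in 14 d controls, 8.97 ± 0.05 in 8 h controls, 8.96 ± 0.18 in KA tissue at 14 d and 8.70 ± 0.14 in KA tissue at 8 h (SD, n = 3 each). The upper 3 groups overlapped one another, and the lowest overlapped KA at 14 d.

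Gabrb1 encodes a less abundant beta subunit. At 8 h it measured 8.32, 8.55 and 8.62 on the KA arrays, against 8.51, 8.57 and 8.52 on the controls, with a change of -0.04 ± 0.12 (SE, adjusted p 0.892 in limma). At 14 d it measured 8.79, 8.37 and 8.90 on the KA arrays, against 8.31, 8.43 and 8.48 on the controls. KA replicates 1 and 3 lay above every control and KA replicate 2 lay among them. The change was 0.28 ± 0.12 (SE, 95% interval 0.02 to 0.54, adjusted p 0.335 in limma). Without KA 14 d replicate 2 it was 0.44, with an adjusted p of 0.0214. The change at 14 d minus the change at 8 h was 0.32 ± 0.17 (SE, adjusted p 0.362), and 0.48 without that array (adjusted p 0.0428).

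Gabrd encodes the delta subunit, which takes the place of gamma in receptors outside synapses on dentate granule cells. Its brighter probe set was dim, at the 54.7th percentile of all probe sets by mean level. It measured 5.08, 5.11 and 4.97 on the KA arrays at 8 h, against 4.86, 5.14 and 5.24 on the controls, with a change of -0.03 ± 0.11 (SE, adjusted p 0.923 in limma). At 14 d it measured 5.07, 5.37 and 5.05 on the KA arrays, against 5.48, 5.36 and 5.30 on the controls. KA replicates 1 and 3 lay below every control and KA replicate 2 lay among them. The change was -0.21 ± 0.11 (SE, adjusted p 0.46). The second Gabrd probe set was above background on 2 of 12 arrays and gave -0.03 and 0.04 at the 2 times, values that say little about the gene. The other 14 member probe sets were above background on 12 of 12 arrays.

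**Figure D2:**
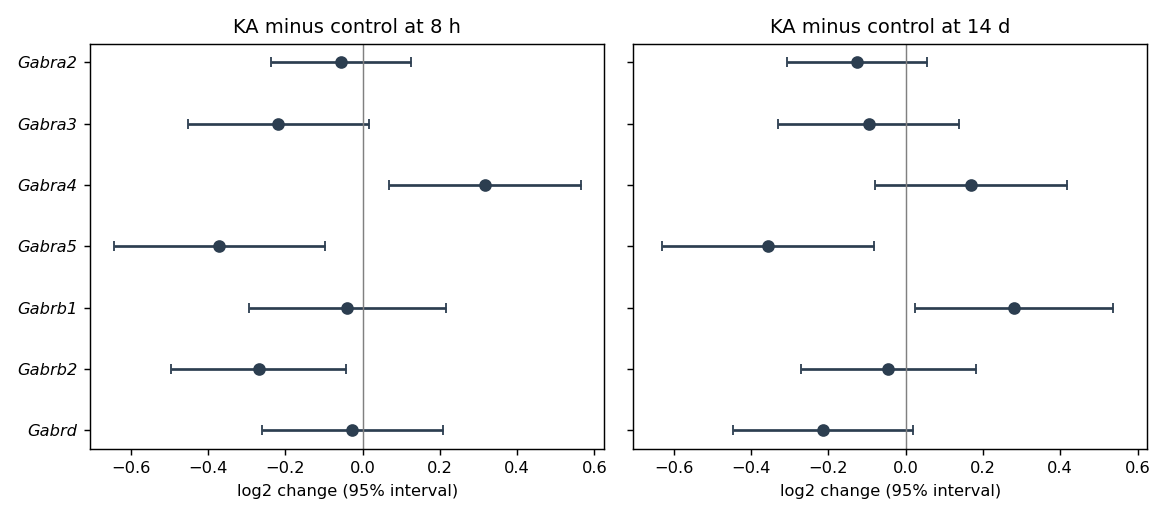
Log2 change of each gene, KA minus control (x axis), at 8 h on the left and at 14 d on the right, with 95% intervals from the limma fit. Gabra5 is negative at both times, while the interval of Gabra4 lies above 0 at 8 h and that of Gabrb1 above 0 at 14 d before adjustment over all genes.

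Over the 7 genes at 8 h, 6 changes were negative and 1 was positive, with a median of -0.06, where the median of all genes was -0.02. The median size of the change, with the sign left out, was 0.22 in the members and 0.12 in all genes. At 14 d, 5 were negative and 2 positive, with a median of -0.10 in the members and -0.01 in all genes. Groups did not overlap, with KA lower, for 2 members at 8 h (Gabra5, Gabrb2), where the share of all genes was 18.9%, and for 2 members at 14 d (Gabra2, Gabra5), where it was 8.5%. None of the 7 had all KA arrays higher, against 14.8% of all genes at 8 h and 8.02% at 14 d.

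At the level of probe sets, 0 of 15 were called by limma at either time, where 14.8% of all probe sets were called at 8 h and 1.68% at 14 d. An unadjusted p under 0.05 was found for 5 of the 15 at 8 h and for 3 at 14 d. That share was not counted over all probe sets, here or in the comparisons below. The KA arrays all lay above the controls for 2 probe sets at 8 h and for 0 at 14 d, against 15.2% and 6.67% of all probe sets. They all lay below for 3 at 8 h and 5 at 14 d, against 16.9% and 8.61%.

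**Figure D3:**
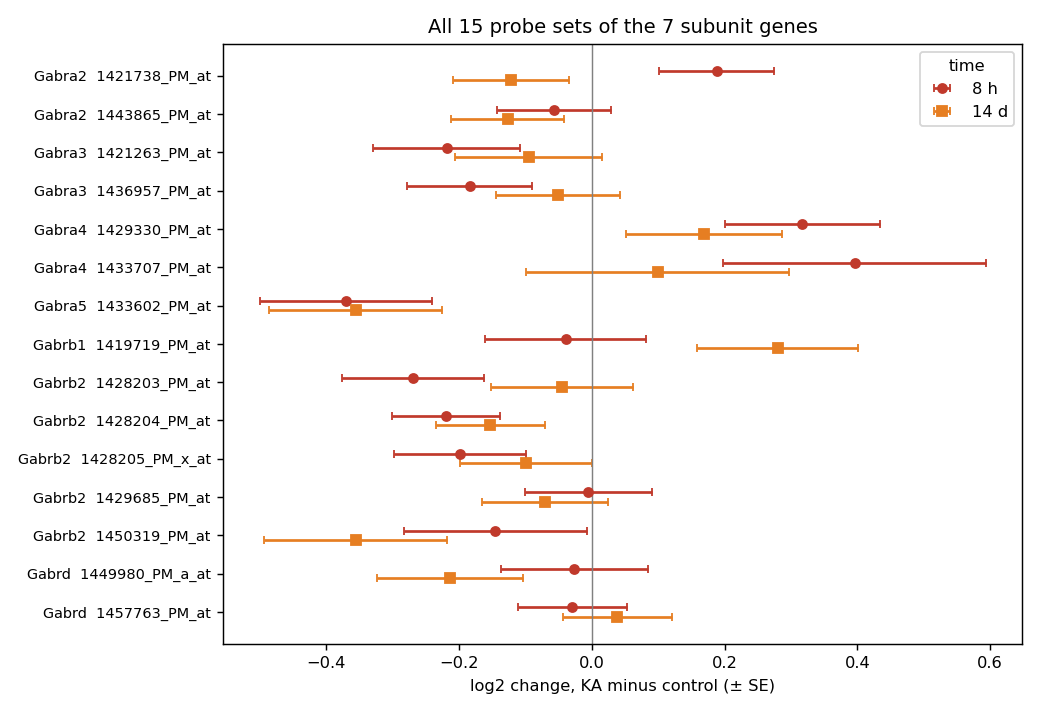
Log2 change, KA minus control, with its standard error (x axis) for each of the 15 probe sets of the 7 genes, at 8 h (circles) and 14 d (squares). The 2 probe sets of Gabra2 differ in sign at 8 h, and the 5 of Gabrb2 are negative at both times.

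The change at 14 d minus the change at 8 h was called for 0 of 7 members by limma, where 5.52% of all genes were called, and 0 had an unadjusted p under 0.05. The differences ran from -0.19 for Gabrd to 0.32 for Gabrb1. By probe set, 0 of 15 were called, where 4.51% of all were called, and 1 had an unadjusted p under 0.05. The comparisons at the single times use separate controls.

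Between 14 d and 8 h controls, 0 of 7 members were called by limma, where 1.8% of all genes were called, and 3 had an unadjusted p under 0.05. Of all 13853 genes ranked by limma p, one at 0.0504 ranked 2052nd in this comparison. Gabra3 was 0.37 ± 0.11 higher in the 14 d controls (SE, adjusted p 0.104), with all 14 d controls above all 8 h controls. With the replicate block its adjusted p was 0.0387. Gabrd was 0.30 ± 0.11 higher (SE, adjusted p 0.199) and Gabra2 0.19 ± 0.09 higher (SE, adjusted p 0.301), also without overlap. That made 3 members with all 14 d controls higher, where the share of all genes was 15.3%, and 1 member, Gabrb1, with all 14 d controls lower, where the share was 9.76%. The second probe sets of Gabra3 and Gabrd gave 0.05 ± 0.09 and 0.02 ± 0.08 between controls, with overlapping groups (SE, adjusted p 0.906 and 0.951 in limma over all probe sets). The second of Gabra2 gave 0.15 ± 0.09 (SE, adjusted p 0.513), without overlap. By probe set, 0 of 15 were called, where 1.36% of all were called, and 3 had an unadjusted p under 0.05. All 14 d controls were higher for 4 probe sets and lower for 1, against 13.8% and 9.92% of all probe sets. The order of the group means was 14 d control, KA 14 d, 8 h control, KA 8 h for the brighter probe sets of Gabra2, Gabra3 and Gabrd. None of the second probe sets of these genes had that order. Without control 8 h replicate 1 the difference between the controls was 0.24 for Gabra3 and 0.19 for Gabrd.

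Across the 12 arrays the members did not move as 1 block. Pearson's r of log2 levels between members ran from -0.537 for Gabrb1 and Gabrd to 0.799 for Gabra2 and Gabra3, as a description over arrays that share groups and preparation. Within groups, deviations from the group mean correlated at 0.856 for Gabra5 and Gabrb1 and at 0.823 for Gabrb1 and Gabrb2, the highest of the 21 pairs. They were positive for every pair without Gabrd, the lowest being 0.347 for Gabra3 and Gabrb1. With Gabrd they ran from -0.634 (Gabrb1) to 0.435 (Gabra3). KA 14 d replicate 2 lay furthest from its group mean for both Gabra5 and Gabrb1, so that array weighed most in their value of 0.856.

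Of the 13852 other genes tested, those most like each member over the 12 arrays were found by the same r. They were Prelid3a (0.952), Grm5 (0.936) and Ccdc85a (0.935) for Gabra5. They were Abhd12 (0.899), Vcan (0.894) and Pdcd6 (0.891) for Gabra4, and Cds2 (0.961), Cnot2 (0.954) and Kif2a (0.948) for Gabra2. For Gabra3 they were Trim80 (0.991), Atp23 (0.976) and Cyth2 (0.951). For Gabrb2 they were Cptp (0.964), Kmt2d (0.962) and AI593442 (0.952), and for Gabrb1 Acsl6 (0.917), Dhps (0.913) and Tmem47 (0.908). For Gabrd they were Chrna4 (0.871), Ccdc186 (0.869) and Slc2a4rg-ps (0.859). No member was among the genes most like another.

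Of 12 other GABA-A subunit genes listed, 8 had a named probe set and 6 were tested. For this and the lists below, the shares of all genes called at 8 h were 7.92% higher and 9.55% lower. At 14 d they were 1.99% higher and 0.57% lower. At 8 h 1 of the 6 fell and 0 rose, and at 14 d 0 were called by limma, with 1 at an unadjusted p under 0.05. The gene that fell was Gabrg3, a gamma subunit, at 5.76, 5.86 and 5.79 on the KA arrays against 6.19, 6.38 and 6.33 on the controls. The change was -0.50 ± 0.12 (SE, adjusted p 0.00719 in limma), and its dimmer probe set gave -0.04, above background on 4 of 12 arrays. At 14 d Gabrg3 changed by -0.16 (adjusted p 0.653), and the difference between the times was not called (adjusted p 0.301). Gabra6, Gabrg1, Gabre, Gabrp, Gabrr1 and Gabrr2 were at or below background on all arrays.

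Proteins that cluster or move GABA-A receptors were represented by 24 genes, of which 21 were tested. At 8 h 3 of the 21 fell, where 9.55% of all genes fell, and 0 rose. At 14 d 0 were called by limma, with 3 at an unadjusted p under 0.05. Shisa7, a receptor-associated membrane protein, changed by -0.48 (adjusted p 0.00312 in limma). Hap1, which helps return receptors to the surface, changed by -0.41 (adjusted p 0.00568), and Arfgef2, a guanine nucleotide exchange factor for ARF proteins, by -0.39 (adjusted p 0.0121). At 14 d the changes were -0.30 for Shisa7, -0.26 for Hap1 and 0.02 for Arfgef2 (adjusted p 0.152, 0.191 and 0.96). The difference between the times was called for none of these 3 (adjusted p 0.599, 0.664 and 0.11). The call of Arfgef2 was lost without control 8 h replicate 3, without KA 8 h replicate 1 and with the mean of its probe sets, with an adjusted p of up to 0.0621. The named probe set of Gphn, which encodes the scaffold gephyrin, was at or below background on all arrays.

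For GABA-B receptors, 4 of 5 listed genes were tested. Kctd12, an auxiliary subunit, rose by 0.92 at 8 h (adjusted p 0.00609 in limma), and at 14 d 0 of the 4 were called, with 0 at an unadjusted p under 0.05. Kctd12 changed by 0.11 at 14 d, and the difference between the times was not called (adjusted p 0.142).

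Of 9 factors known to act on GABA-A subunit genes, 8 were tested and 7 rose at 8 h. Bdnf, a neurotrophin, rose by 2.88 (adjusted p 2.28e-07 in limma) and Egr1, an early transcription factor, by 2.51 (adjusted p 1.89e-06). Stat3, a transcription factor, rose by 0.78, Ntrk2, the Bdnf receptor, by 0.51, and Rest, a repressor of neuronal genes, by 0.38. Creb1 (0.33) and Egr3 (0.25) were close to the threshold, with adjusted p-values of 0.0426 and 0.0481, and were called in 11 and 8 of 24 alternative settings. The call of Rest was lost with the mean of its probe sets and without the third array of each group. At 14 d 1 of the 8 rose, Bdnf by 1.17 (adjusted p 0.00612), with 4 at an unadjusted p under 0.05. Egr3 changed by 0.31 and Stat3 by 0.38 at 14 d (adjusted p 0.0638 and 0.0599). The difference between the times was called for 2 of the 8, Egr1 and Bdnf. Between controls 2 of the 8 were called, with 14 d controls higher by 1.62 for Egr1 and 0.52 for Creb1 (adjusted p 0.00203 and 0.019). Jak2 was not called at either time, and Crem was at or below background on all arrays.

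Of 8 pan-neuronal markers, 2 fell at 8 h (Rbfox3, Tubb3), and the mean level of the list was 9.94 to 10.07 on the KA arrays and 10.10 to 10.19 on the controls. At 14 d 1 of the 8 fell (Syt1), with list levels of 9.91 to 10.21 on the KA arrays and 10.17 to 10.24 on the controls. Of 5 markers of CA1 pyramidal cells, 0 were called by limma at 8 h (1 at an unadjusted p under 0.05) and 1 fell at 14 d (Fibcd1, -0.96), with list levels at 14 d of 6.70 to 6.82 on the KA arrays and 6.98 to 7.18 on the controls. Of 5 markers of CA3 pyramidal cells that were tested, 2 rose at 8 h (Nectin3, Tspan18) and 0 were called at 14 d (1 at an unadjusted p under 0.05). At 8 h 3 of 8 markers of dentate granule cells rose and 2 fell, and at 14 d 2 rose and 1 fell. Of all genes, 7.92% rose and 9.55% fell at 8 h, and 1.99% rose and 0.57% fell at 14 d. The part of these markers in the subunit values at either time was not tested.

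Of 7 microglia markers, 6 rose at 14 d, and the list level was 7.58 to 7.73 on the KA arrays and 6.24 to 6.26 on the controls. At 8 h 1 of them rose and 3 fell. Of 6 astrocyte markers, 1 rose at 8 h and 3 rose at 14 d. Of 13 interneuron markers, 1 rose and 3 fell at 8 h, and 1 fell at 14 d (Pvalb). Thalamus, which also expresses Gabra4 and Gabrd, had 1 of 8 markers fall at 8 h and 0 called by limma at 14 d (2 at an unadjusted p under 0.05). Of 7 markers of cortex and amygdala, 2 rose and 1 fell at 8 h and 1 fell at 14 d. Of 6 choroid plexus markers, 0 were called by limma at either time, with 0 at an unadjusted p under 0.05, and the list level ranged from 5.49 to 7.25 on the KA arrays at 8 h against 6.66 to 6.98 on the controls. The shares of all genes called were 7.92% higher and 9.55% lower at 8 h, and 1.99% higher and 0.57% lower at 14 d. The part of these markers in the subunit values was not tested.

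**Figure D4:**
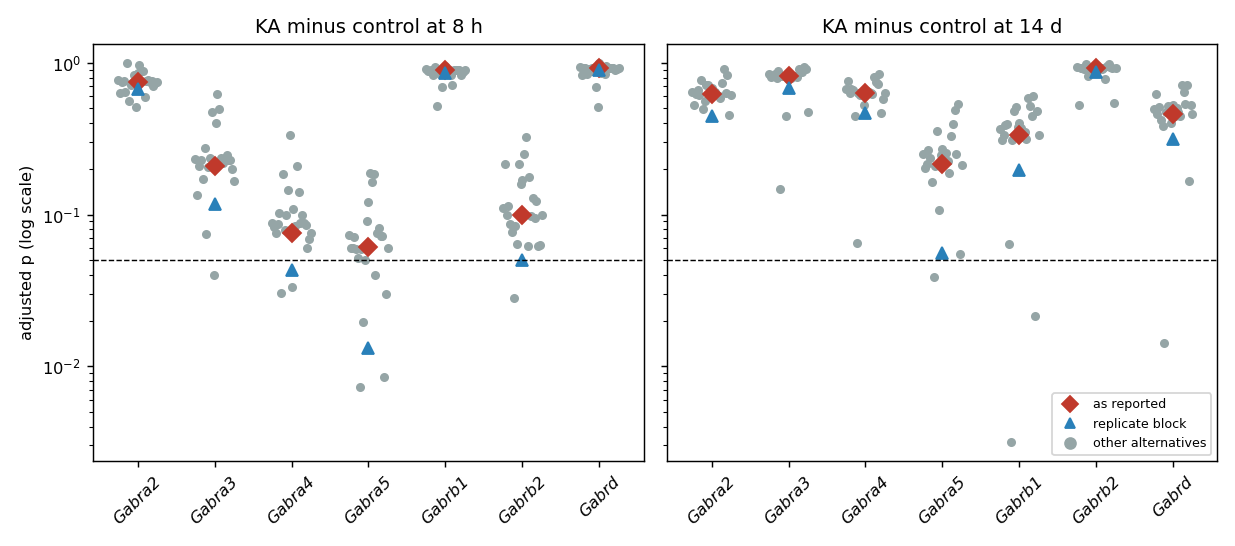
Adjusted p of each gene (y axis, log scale) at 8 h and 14 d as reported (diamonds), with the replicate number as a block (triangles) and under the other settings tried (dots), with the threshold of 0.05 as a dashed line. At 8 h Gabra4 and Gabra5 lie just above the threshold as reported and below it with the block.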

How the data were processed

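Expression was measured on 12 arrays of mouse hippocampus, 3 per group, grouped by sample title. All titles begin with the word Input, which the labels do not explain. Per the submitters' processing notes the values were made with RMA and affy, with versions and order not given in the sources used here. The deposited values are log2 intensities, since they span the range of RMA output with near-equal array medians. The array annotation gave 1 symbol to 28898 of 45141 probe sets, several to 551 and none to 15588, beside 104 controls.

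For each gene the probe set with the highest mean was used, and a gene was kept when at least 3 arrays had it above their 30th percentile (4.08 to 4.147). One limma model (version 3.58.1, R 4.3.3) with eBayes held the means of the 4 groups, leaving 8 residual degrees of freedom. Tests were two-sided, adjusted by Benjamini-Hochberg over 13853 genes, and called at 0.05. Every probe set was also fitted, adjusted over 32790. Background was the mean of 6 control probe sets with 20 to 25 G or C bases, chosen after the files were seen. On simulated data the fit recovered 73.1% of planted changes of 0.5 at 8 h and 64.2% at 14 d. Smaller changes were not planted, and the KA changes of all 7 members were smaller than 0.5. Gene names, coordinates and promoters came from RefSeq (GRCm38.p6), and the array's own build was not used.

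Members and lists were chosen with earlier results of these data known. All members are named, and so are genes of the lists of other subunits, clustering and trafficking, GABA-B receptors and factors that passed the test at 8 h or 14 d. Marker lists are given by counts, with some of the called markers named. For each member the 3 genes of highest r are named. List members named as not called or below background, and marker genes, go beyond that rule. Alternatives covered the filter, probe set choice, normalization, spread, arrays fitted, the replicate block and, added later, the removal of X and Y genes.

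The groups use the same replicate numbers, with no statement in the labels on pairing. Deviations of same-numbered arrays from their group means correlated at 0.155, 0.138 and 0.413 at 8 h, all above the bound of 0.1. Arrays of different numbers passed it too, as KA 8 h replicate 1 did with control replicate 2 (0.138). KA 8 h replicate 2 correlated more closely with control replicate 1 (0.163) than with its own number. The check therefore does not single out a pairing of replicates 1 and 2. At 14 d the values for same numbers were 0.164, 0.068 and 0.463, and between control groups 0.163, 0.036 and 0.401, which do not all pass the bound. The block was fitted over all 4 groups.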

Additional observations from a re-analysis of the deposited data

Results flagged for a closer look

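The second probe set of Gabra2 had changes of opposite sign at the 2 times, neither of which passed the test. All 3 KA arrays lay above all controls at 8 h, with a change of 0.19 (adjusted p 0.18 in limma), and all 3 lay below them at 14 d, with a change of -0.12 (adjusted p 0.684). The controls of this probe set also moved, with all 14 d controls above all 8 h controls, by 0.15 ± 0.09 (SE, adjusted p 0.513 in limma). The change at 14 d minus the change at 8 h was -0.3099 ± 0.12 (SE, unadjusted p 0.0237 and adjusted p 0.206 in limma over 32790 probe sets). Of the 15 member probe sets it alone had an unadjusted p under 0.05 for this difference. The brighter probe set of the same gene gave -0.07 for this difference. The cause was not tested.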

How the results depend on the processing

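The number of members called at 8 h, 0 as reported, was 1 with cyclic loess (Gabra4), 1 with only the 2 groups in the fit (Gabra5), and 2 with array weights (Gabra5 and Gabrb2, lower). With the replicate block it was 2 (Gabra4 higher, Gabra5 lower), a setting whose pairing is not stated in the labels. Leaving out 1 array gave 0 to 1. That 1 was Gabra3 without control 8 h replicate 1, Gabra4 without control 8 h replicate 2, and Gabra5 without KA 8 h replicate 3, KA 14 d replicate 2 or KA 14 d replicate 3. At 14 d the count was 3 with array weights (Gabra5 and Gabrd lower, Gabrb1 higher), a setting that called 15.2% of all genes there. It was 0 to 1 when 1 array was left out. For the difference of changes it was 1 with array weights (Gabrb1), and 0 to 1 when 1 array was left out. The call in both was Gabrb1 without KA 14 d replicate 2. Between controls it was 2 with array weights (Gabra3, Gabrd), 1 with the replicate block (Gabra3) and 1 without the third arrays (Gabra3). Over all genes the replicate block called 3134 at 8 h, 599 at 14 d, 1214 for the difference and 570 between controls, against 2420, 354, 764 and 249 without it. In the same order array weights called 23.8%, 15.2%, 15.7% and 9.64% of all genes, against 17.5%, 2.56%, 5.52% and 1.8% as reported. At 8 h cyclic loess called 18.9% of all genes and the fit of only 2 groups 17.9%. The fit of array weights stopped before its tolerance was met.

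Changes near 0 turned sign under some settings. At 8 h Gabra2 was 0.0656 with the mean of its probe sets and 0.0012 with cyclic loess, and Gabrb1 was 0.0164 with cyclic loess. At 14 d Gabrb2 was 0.0078 with cyclic loess. With array weights the difference of changes was 0.0046 for Gabra2 and 0.0386 for Gabra4. Without the third arrays Gabrd at 8 h was 0.10, the difference was -0.0571 for Gabra3 and -0.0315 for Gabra5, and Gabrb2 between controls was -0.0062. Leaving out 1 array gave -0.14 to 0.054 for Gabrd and -0.10 to 0.0478 for Gabrb1 at 8 h. It gave -0.14 to 0.047 for Gabrb2 at 14 d, -0.11 to 0.20 for the difference of Gabra5, and -0.0348 to 0.11 for Gabrb2 between controls. The causes were not tested.

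Over its alternatives Gabra5 ranged from -0.46 to -0.31 at 8 h (adjusted p 0.00731 to 0.188, called in 6 of 24) and from -0.48 to -0.17 at 14 d (adjusted p 0.0388 to 0.535). Gabra4 at 8 h ranged from 0.17 to 0.42 (adjusted p 0.0302 to 0.334, called in 3 of 24), and Gabrb1 at 14 d from 0.17 to 0.44 (adjusted p 0.00314 to 0.605). With 3 arrays per group the number of arrays limits the precision.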
